A study of Mus musculus with 46 samples.

Results

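Of 46 mouse RNA libraries in a study of intravenous immunoglobulin (IVIG) in a model of mucous membrane pemphigoid, 18 fell into a neutrophil class of 10 and a monocyte class of 8, which were compared here across genes. The classes were read from the libraries themselves, among the 34 libraries outside a separate experiment labelled Ics. Levels are given as CPM, a gene's counts scaled to a common library total. A library was set aside as blood when the haemoglobin genes Hba-a1, Hba-a2, Hbb-bs and Hbb-bt held over 10% of its counts, and then as skin when Krt5 and Krt14 together passed 100 CPM. Of the rest, a library with over 10000 CPM of S100a8 and S100a9 together was called neutrophil, and the others monocyte. This left 10 libraries in the blood class and 6 in the skin class.

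The neutrophil class held 4 libraries labelled IVIG and 6 labelled PBS, the saline control, and the monocyte class held 4 of each. The modelled disease is driven by antibodies against laminin 332, a protein of the epithelial basement membrane, and the labels speak of control and treated mice without saying which library is which beyond the agent. Per the labels' protocol, neutrophils and monocytes were bone marrow derived, with no sort or purity given, and RNA was enriched for polyadenylated messages. Strain, age and sex are not given in the sources used here. The agent was ignored in the comparison.

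Neutrophils and monocytes both arise from granulocyte and monocyte progenitors in the bone marrow. Neutrophils fill primary granules at the promyelocyte stage, then secondary and tertiary granules, and end as short-lived cells that depend on glycolysis and hold few mitochondria. Monocytes keep more mitochondria and lysosomes, and carry the receptors for colony stimulating factor 1, Ccl2 and fractalkine.

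The values that chose the members are a description only. S100a8 and S100a9, which code the subunits of calprotectin, together held 33729 to 71213 CPM in the neutrophil class, against 715 to 8070 CPM in the monocyte class. The member nearest to the limit on its upper side was Blood replicate 1 with 33729 CPM, and on its lower side Monocyte replicate 3 with 8070 CPM. Ly6g, a surface protein of mouse neutrophils, held 401 to 823 CPM in the neutrophil class, against 0.461 to 22.7 CPM in the monocyte class. Csf1r, the receptor for colony stimulating factor 1, held 155 to 283 CPM in the neutrophil class, against 25.4 to 864 CPM in the monocyte class. The Csf1r ranges overlapped. With mitochondrially coded genes left out they were 158 to 286 CPM in the neutrophil class, against 147 to 897 CPM in the monocyte class. By the rule the monocyte class rests on low calprotectin, and this receptor had no part in it.

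Library names and classes did not always match. The neutrophil class held 8 libraries labelled Neutrophil, 1 labelled Blood (replicate 1) and 1 labelled Monocyte (replicate 1). The monocyte class held 7 libraries labelled Monocyte (replicates 2 to 8) and 1 labelled Blood (replicate 3). Neutrophil replicates 1 and 10 fell in the blood class, with 96.3% and 98.3% of their counts in the haemoglobin genes. Library totals were 19784891 to 39014197 counts in the neutrophil class, against 18965431 to 33938445 in the monocyte class. No label ties a library to its own animal or culture, and p-values thus cover the spread between these libraries alone.

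Because the classes were cut from the counts, no class difference was tested. The test used the deposited names instead, with 10 libraries labelled Neutrophil against 8 labelled Monocyte in a quasi-likelihood F test of edgeR, and an adjusted p under 0.05 over all genes. Of 14134 genes tested, 932 (6.59%) were higher and 518 (3.66%) were lower in libraries labelled Neutrophil. Without the 3 libraries whose class went against the name, leaving 8 against 7, 2196 of 14232 genes (15.4%) were higher and 1276 (8.97%) lower. The second pair of counts is a description, since those libraries were picked by the class genes. Of the genes called with all names kept, 821 of 932 higher (88.1%) and 515 of 518 lower (99.4%) were also called there. Log2 differences below are Neutrophil over Monocyte from the test on deposited names with their standard error (SE), unless the classes are named. The median over all genes tested was 0.09. Counts of list members called as labelled are to be read beside 6.59% higher and 3.66% lower of all genes. Where name and class coincide, those shares are 15.4% and 8.97%. Leaving out single libraries moved the higher count to between 526 (without Neutrophil replicate 3) and 1628 (without Monocyte replicate 1). The test multiplied each library total by a TMM scaling factor. This factor was 0.054 and 0.0185 in Neutrophil replicates 1 and 10, of the blood class, and 0.343 in Monocyte replicate 5. In the other libraries it was 1.12 to 2.35. Scaling by library totals alone left 7 genes higher and 89 lower. The part of these factors in the as-labelled differences was not tested.

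Between the classes, 1146 of 12969 genes (8.84%) had values that did not overlap and were at least 2-fold higher in the neutrophil class, and 42 (0.324%) were lower, or 115 without Monocyte replicate 5. A class limit of 5000 CPM gave 133 higher and 6 lower. Leaving out the 4 libraries above 30% mitochondrial counts gave 980 higher and 1728 lower. The monocyte class was then smaller, which makes non-overlap easier to meet. The part of mitochondrially coded transcripts in these counts was not tested. They held 0.345% to 2.94% of counts in the neutrophil class, against 3.68% to 82.7% in the monocyte class. These groups did not overlap. With the mitochondrially coded genes left out before scaling, 627 of 13493 genes (4.65%) did not overlap and were at least 2-fold higher and 446 (3.31%) lower. The median class difference over all genes was 0.25 on the log2(CPM + 1) scale with all counts and -0.28 with those genes left out. List counts free of overlap are to be read beside the shares of all genes given here for the same scale. Among the genes described below, Srgn, Fcer1g, Cd44, Hvcn1 and Ldha met the non-overlap of at least 2-fold with all counts only. Ldlrad3, Lpl, Adgre4, Cd34, Hpgd, Ctsg, F13a1, Irf8, Flt3, Sox4, Maf, Ccl9, Npc2, Rps6 and Clec4a3 met it, as lower, with the mitochondrially coded genes left out only.

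**Figure D1:**
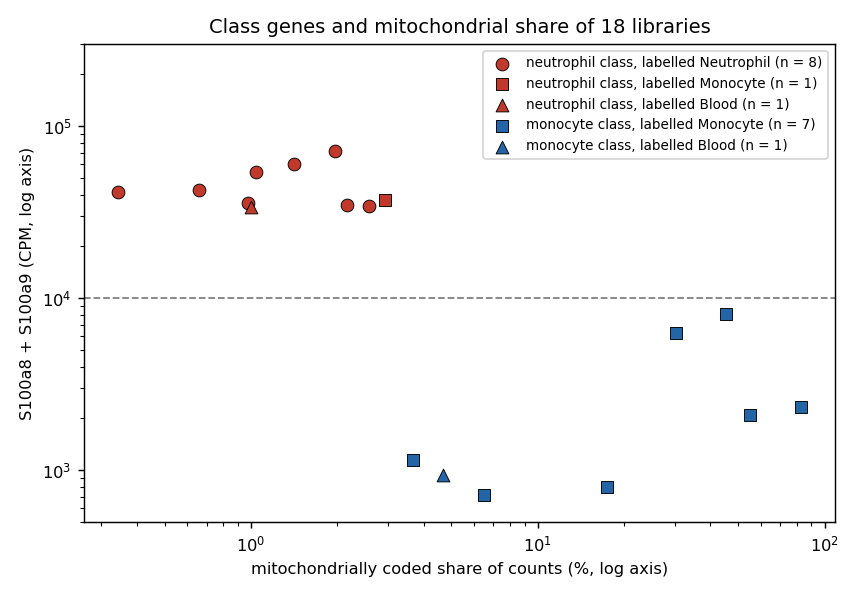
Summed level of S100a8 and S100a9 (CPM, log axis) against the mitochondrially coded share of counts (percent, log axis) in each library of the neutrophil class (red, n = 10) and monocyte class (blue, n = 8). Marker shapes give the deposited name, and the dashed line is the 10000 CPM limit of the class rule. All 10 neutrophil-class libraries lie at or below 2.94% mitochondrial share and all 8 monocyte-class libraries at or above 3.68%.

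The mitochondrial genome codes subunits of the respiratory chain and of ATP synthase. Its 13 protein-coding genes were all lower in libraries labelled Neutrophil, with log2 differences from -6.33 to -5.03 and edgeR adjusted p from 0.00347 to 0.0158. The cytochrome oxidase subunit gene mt-Co1 had 1018 to 8320 CPM (median 4067) in the neutrophil class and 13001 to 294470 CPM (median 64700) in the monocyte class. The NADH dehydrogenase subunit gene mt-Nd5 had 102 to 938 CPM (median 414) in the neutrophil class and 2480 to 39849 CPM (median 8650) in the monocyte class. Across the classes 11 of the 13 did not overlap, the exceptions being mt-Co2 and mt-Nd6. These 13 genes were singled out after their values were seen. Nuclear genes of oxidative phosphorylation gave no calls on the deposited names. Of 20 tested, 0 were higher and 0 lower as labelled by edgeR, with a median of 0.03. At an unadjusted p under 0.05, 2 were higher, and 1 by DESeq2. Between the classes their sums overlapped with all counts. With mitochondrially coded genes left out, the sum was 1894 to 2885 CPM in the neutrophil class, against 3011 to 3776 CPM in the monocyte class. The median class difference on that scale was -0.48, beside -0.28 over all genes, and 1 of the 20 was free of overlap and lower.

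The mitochondrial share was unequal inside the monocyte class. Monocyte replicates 2, 3, 4 and 5 held 55.0%, 45.5%, 30.4% and 82.7%, against 3.68% to 17.4% in Monocyte replicates 6, 7 and 8 and Blood replicate 3. Monocyte replicates 2, 3 and 4 are from title series 5 and replicate 5 from series 2, while replicates 6, 7 and 8 are from series 3. What the series numbers stand for is not given. Genes with at least 5 counts numbered 15102 to 16950 in the neutrophil class, against 8984 to 16378 in the monocyte class, lowest in Monocyte replicate 5. The part of this share in the differences of other genes was not tested.

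Genes were named by the size of the class difference among those past the test on deposited names and free of overlap in the same direction, with 12 in the higher direction. Mxd1, which codes a partner of MAX that opposes MYC, had 1009 to 1935 CPM (median 1458) in the neutrophil class and 11.6 to 69.2 CPM (median 24.8) in the monocyte class. Its as-labelled log2 difference was 3.15 ± 0.87 (SE, edgeR adjusted p = 0.0271). Slfn4, an interferon-inducible Schlafen gene of myeloid cells, had 944 to 3258 CPM (median 1336) in the neutrophil class and 8.30 to 81.5 CPM (median 49.1) in the monocyte class. Separation of the classes was part of the naming rule, so it is no further result for these genes. Clec4d, a C-type lectin receptor, had 217 to 453 CPM (median 262) in the neutrophil class and 1.44 to 12.6 CPM (median 8.99) in the monocyte class. Trem1, an activating receptor that amplifies inflammatory signals, had 419 to 1033 CPM (median 647) in the neutrophil class and 5.33 to 75.5 CPM (median 14.0) in the monocyte class.

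Among the remaining 8 of these genes are several with a known enzyme or regulatory role. Hdc, the enzyme that makes histamine, had 559 to 991 CPM (median 782) in the neutrophil class and 15.1 to 61.7 CPM (median 21.7) in the monocyte class. Slc2a3, the glucose transporter GLUT3, had 320 to 753 CPM (median 622) in the neutrophil class and 8.42 to 43.2 CPM (median 13.4) in the monocyte class. Phospho1, a phosphatase of phosphoethanolamine and phosphocholine, had 46 to 142 CPM (median 84.0) in the neutrophil class and 0 to 7.45 CPM (median 2.46) in the monocyte class. Cd55, which speeds the decay of complement convertases, had 20.3 to 65.7 CPM (median 42.2) in the neutrophil class and 0 to 4.03 CPM (median 0.273) in the monocyte class. All 8 were clear of overlap with all counts by the naming rule, and also with mitochondrially coded genes left out. The transcription factor gene Ets2, the integrin gene Itgb2l, the selenoprotein gene Selenon and Ankrd33b complete the group. Their as-labelled log2 differences ran from 2.78 ± 0.79 for Selenon to 3.33 ± 0.89 for Ankrd33b (SE, edgeR adjusted p = 0.0312 and 0.024).

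In the other direction, 8 genes were named by size, of which 4 were lower in the test on deposited names, 1 (Tsc22d1) was called higher there and 3 were not called. Cx3cr1 (chromosome 9, 119901616 to 120069879), the receptor for fractalkine, had 17.4 to 119 CPM (median 53.6) in the neutrophil class and 151 to 1331 CPM (median 219) in the monocyte class. Its log2 difference was -3.59 ± 0.53 (SE, edgeR adjusted p = 0.00347). Monocyte replicate 4 held the 1331 CPM, and the next library held 273 CPM. Clcn7, a chloride and proton exchanger of lysosomes, had 21.2 to 36.9 CPM (median 30.1) in the neutrophil class and 69.1 to 623 CPM (median 90.8) in the monocyte class. Dbt, a subunit of the branched-chain keto acid dehydrogenase, was at -2.16 ± 0.33 (edgeR adjusted p = 0.00347). The translation initiation factor gene Eif2a was at -1.61 ± 0.34 (edgeR adjusted p = 0.0081).

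With the mitochondrially coded genes left out, more genes separated in this direction, and 5 of them, picked on seeing their values, are described. Lpl, the lipase of circulating lipoproteins, had 15.1 to 32.1 CPM in the neutrophil class, against 47.2 to 230 CPM in the monocyte class on that scale. All counts gave 14.8 to 31.1 CPM in the neutrophil class, against 25.7 to 160 CPM in the monocyte class. It was lower in libraries labelled Neutrophil at -2.20 ± 0.36 (SE, edgeR adjusted p = 0.00347). The LDL receptor domain gene Ldlrad3, the adhesion receptor gene Adgre4, the progenitor marker Cd34 and Hpgd, which inactivates prostaglandins, likewise did not overlap on that scale and were lower as labelled. Their log2 differences were -2.26 ± 0.39, -1.57 ± 0.29, -1.61 ± 0.38 and -1.65 ± 0.34. All 5 overlapped between the classes when all counts were used.

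**Figure D2:**
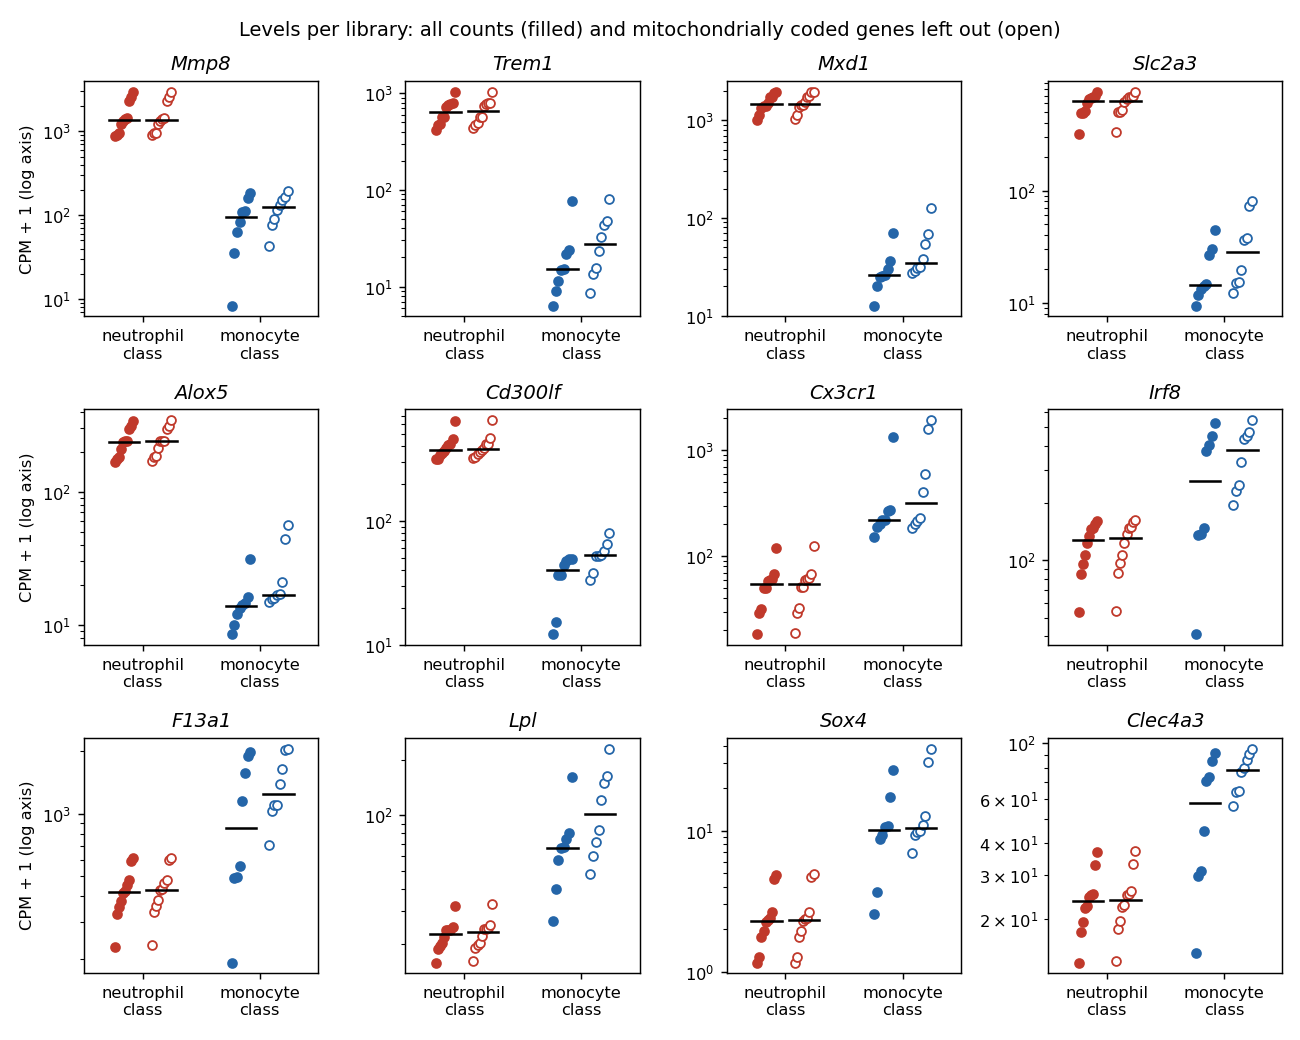
Level (CPM + 1, log axis) of 12 genes in each library of the neutrophil class (red, left, n = 10) and monocyte class (blue, right, n = 8), with filled points for all counts, open points for mitochondrially coded genes left out and bars for medians. Mmp8, Trem1, Mxd1, Slc2a3, Alox5 and Cd300lf are higher in every neutrophil-class library on both scales, and Cx3cr1 is lower in every one. Irf8, F13a1, Lpl, Sox4 and Clec4a3 separate on the open-point scale only.

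Most granule genes of the later stages were higher in every neutrophil-class library than in any of the monocyte class. Of 19 secondary and tertiary granule genes measured, 17 did not overlap between the classes and were higher in the neutrophil class, on either scale. As labelled, edgeR called 4 of 19 higher and 0 lower (0 lower also at an unadjusted p under 0.05 and by DESeq2), with a median of 2.46, and 19 of 19 were higher where name and class coincided. Mmp8, neutrophil collagenase, had 892 to 2917 CPM (median 1360) in the neutrophil class and 7.29 to 181 CPM (median 95.0) in the monocyte class. Its as-labelled log2 difference was 2.98 ± 0.87 (SE, edgeR adjusted p = 0.0353). Anxa1, a calcium-binding protein that dampens neutrophil recruitment, had 1618 to 3969 CPM (median 3093) in the neutrophil class and 108 to 1120 CPM (median 492) in the monocyte class. Olfm4, a marker of a neutrophil subset in mouse and human, had 18.4 to 106 CPM (median 45.8) in the neutrophil class and 0 to 9.35 CPM (median 0.712) in the monocyte class.

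The iron-binding and antimicrobial genes of secondary granules did not pass the test on deposited names. Ltf, lactoferrin, had 15261 to 25487 CPM (median 19262) in the neutrophil class and 68.6 to 2038 CPM (median 211) in the monocyte class, and 2.70 and 2.19 CPM in the blood-class libraries labelled Neutrophil. Its as-labelled log2 difference was 2.48 ± 1.12 (SE, edgeR adjusted p = 0.153), and it was 4.80 ± 0.73 where name and class coincided. Ngp, neutrophilic granule protein, had 17628 to 28134 CPM (median 21844) in the neutrophil class and 408 to 4508 CPM (median 767) in the monocyte class. Camp, the cathelicidin, had 9153 to 16154 CPM (median 12894) in the neutrophil class and 308 to 3168 CPM (median 621) in the monocyte class. Lcn2, which captures bacterial siderophores, had 3722 to 6291 CPM (median 4632) in the neutrophil class and 63.2 to 798 CPM (median 93.9) in the monocyte class. Within the monocyte class, Monocyte replicates 3 and 4 held the most Ltf, Camp and Ngp with all counts. With mitochondrially coded genes left out, Monocyte replicate 5 held more Ngp than replicate 4, at 5434 and 2723 CPM.

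C/EBP factors, C/EBP-epsilon above all, drive secondary granule genes, and PU.1 acts in both lineages. The promoters of 3 granule genes on chromosome 9 are printed because these genes separate the classes and each holds a C/EBP-type match, TTGCNNAA or its reverse complement TTNNGCAA, shown in capitals. Sequences are from RefSeq on GRCm38.p6, plus strand and 5′ to 3′, and start 250 bases before the RefSeq gene start. They stop before the first exon in GENCODE vM21 where that lies further upstream.
Ngp (chr9:110419558-110419746, plus strand): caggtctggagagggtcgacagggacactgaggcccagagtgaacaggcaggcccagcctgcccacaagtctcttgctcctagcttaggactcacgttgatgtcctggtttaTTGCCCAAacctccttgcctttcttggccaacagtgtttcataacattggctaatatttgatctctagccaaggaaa
Ltf (chr9:111019042-111019270, plus strand): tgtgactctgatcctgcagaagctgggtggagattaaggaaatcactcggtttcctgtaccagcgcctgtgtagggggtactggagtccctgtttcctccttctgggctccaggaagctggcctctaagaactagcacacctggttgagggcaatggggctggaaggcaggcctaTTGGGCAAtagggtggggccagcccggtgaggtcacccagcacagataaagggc
Mmp8 (chr9:7558179-7558428, plus strand): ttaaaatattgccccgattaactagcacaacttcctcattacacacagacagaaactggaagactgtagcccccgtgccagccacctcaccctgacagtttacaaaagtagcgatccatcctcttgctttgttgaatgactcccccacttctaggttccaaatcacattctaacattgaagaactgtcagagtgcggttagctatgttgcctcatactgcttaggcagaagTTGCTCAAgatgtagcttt

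The printed matches begin 138 bases before the RefSeq start in Ngp, 75 in Ltf and 19 in Mmp8. Over the 250 bases before the start, on both strands, the C/EBP-type match was present in 6 of 17 secondary and tertiary granule genes with a promoter entry (35.3%), 4 of 22 mature neutrophil genes (18.2%), 1 of 25 monocyte and macrophage genes (4.0%) and 2930 of 27025 genes overall (10.8%). A PU.1-type match, AGGAAGT or ACTTCCT, was present in 5 of 17 (29.4%), 1 of 22 (4.55%), 11 of 25 (44%) and 2377 of 27025 (8.8%). Of the printed stretches only that of Mmp8 held both motifs, and there they did not overlap. A match describes letters and says nothing of binding.

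Primary granule genes, made earlier in the lineage, were not raised in the neutrophil class in the way the later granules were. Mpo, myeloperoxidase, had 101 to 764 CPM (median 505) in the neutrophil class and 115 to 1007 CPM (median 551) in the monocyte class. Elane, neutrophil elastase, had 56.9 to 325 CPM (median 232) in the neutrophil class and 65.1 to 494 CPM (median 199) in the monocyte class. On the scale without mitochondrially coded genes, Mpo was at 103 to 784 CPM in the neutrophil class, against 576 to 1847 CPM in the monocyte class. Both genes overlapped on both scales, and neither passed the as-labelled test, at -0.92 ± 0.71 and -0.85 ± 0.64 (SE, edgeR adjusted p = 0.429 and 0.416). Of 7 tested, edgeR called 1 higher and 0 lower, with 1 lower at an unadjusted p under 0.05 and 1 by DESeq2. The higher member was Srgn, the proteoglycan that packs granule contents, at 2.14 ± 0.35 (edgeR adjusted p = 0.00347). Ctsg, cathepsin G, did not pass at -1.36 ± 0.51 (edgeR adjusted p = 0.0885). With mitochondrially coded genes left out it was lower in every neutrophil-class library, at 10.8 to 64.4 CPM, against 85.8 to 253 CPM in the monocyte class.

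Genes of mature neutrophils followed the later granules. Of 25 measured, 20 did not overlap and were higher in the neutrophil class. As labelled, edgeR called 5 of 25 higher and 0 lower (0 lower also at an unadjusted p under 0.05 and by DESeq2), with a median of 2.55. Csf3r, the receptor for granulocyte colony stimulating factor, had 742 to 1957 CPM (median 1066) in the neutrophil class and 17.2 to 383 CPM (median 219) in the monocyte class. Fpr2, a receptor for formylated peptides, had 246 to 607 CPM (median 327) in the neutrophil class and 10.4 to 28.9 CPM (median 17.9) in the monocyte class. Cxcr2, the receptor for the neutrophil chemoattractants Cxcl1 and Cxcl2, had 209 to 690 CPM (median 317) in the neutrophil class and 0 to 36.4 CPM (median 3.18) in the monocyte class. It did not pass as labelled, at 3.36 ± 1.12 (SE, edgeR adjusted p = 0.0599). Retnlg, a resistin-like secreted protein, had the widest class difference of the genes named here, 9.26 on the log2(CPM + 1) scale. It held 6322 to 16186 CPM (median 7824) in the neutrophil class and 1.79 to 113 CPM (median 9.58) in the monocyte class, and did not pass as labelled at 3.20 ± 1.41 (SE, edgeR adjusted p = 0.144).

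Of 20 glycolysis and glycogen genes, 9 were higher as labelled, beside 6.59% of all genes tested. By edgeR 0 of the 20 were lower, and also 0 at an unadjusted p under 0.05 or by DESeq2. The median as-labelled difference was 0.73. Between the classes 10 of 20 did not overlap and were higher in the neutrophil class, or 4 with mitochondrially coded genes left out. Besides Slc2a3 the calls were Slc2a1, Hk1, Aldoa, Pkm, Ldha, Pygl, Gbe1 and Pfkfb4. Ldha, which turns pyruvate into lactate, had 335 to 388 CPM (median 356) in the neutrophil class and 37.1 to 207 CPM (median 153) in the monocyte class. Its spread inside the neutrophil class was narrow, and its log2 difference was 1.06 ± 0.22 (SE, edgeR adjusted p = 0.00698). Pfkfb4, which sets the level of the phosphofructokinase activator fructose 2,6-bisphosphate, was at 1.86 ± 0.40 (edgeR adjusted p = 0.00903).

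Genes of the oxidative burst were higher in the neutrophil class in 6 of 9 cases, or 3 of 9 with mitochondrially coded genes left out. As labelled, Hvcn1, the proton channel that balances charge during the burst, was the 1 call of edgeR among 9 tested, at 1.30 ± 0.30 (SE, edgeR adjusted p = 0.0121). At an unadjusted p under 0.05, 5 were higher, and DESeq2 called 3 higher and 1 lower. Ncf1, the organiser subunit of NADPH oxidase, had 1007 to 1656 CPM (median 1293) in the neutrophil class and 77.1 to 420 CPM (median 297) in the monocyte class. Rac2, the small GTPase of the oxidase, had 1225 to 2077 CPM (median 1660) in the neutrophil class and 159 to 777 CPM (median 490) in the monocyte class. Neither passed as labelled, at 1.43 ± 0.47 and 1.21 ± 0.42 (edgeR adjusted p = 0.0579 and 0.0672).

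Lipid mediator genes split between the lineages. Of 14 tested, 3 were higher and 3 lower as labelled. Alox5, which starts leukotriene synthesis, had 165 to 338 CPM (median 237) in the neutrophil class and 7.48 to 29.98 CPM (median 12.7) in the monocyte class, with a log2 difference of 2.58 ± 0.64 (SE, edgeR adjusted p = 0.0169). Ptgs1, a cyclooxygenase, was at 1.61 ± 0.32 (edgeR adjusted p = 0.00688). Alox15, a 12/15-lipoxygenase, was lower at -4.003 ± 0.78 (edgeR adjusted p = 0.00613), with 0.102 to 1.31 CPM in the neutrophil class, against 1.80 to 13.2 CPM in the monocyte class. The other lower calls were Hpgd and Hpgds, a prostaglandin D synthase.

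Receptors that guide cells moved both ways. Among 12 chemoattractant receptor genes tested, 4 were higher and 1 was lower as labelled. Ccr1, which binds Ccl3 and Ccl5, had 151 to 475 CPM (median 245) in the neutrophil class and 3.94 to 110 CPM (median 63.1) in the monocyte class, with a log2 difference of 1.94 ± 0.55 (SE, edgeR adjusted p = 0.0312). S1pr4, a sphingosine 1-phosphate receptor of blood cells, was at 1.22 ± 0.32 (edgeR adjusted p = 0.0233). Of 15 genes of integrins and selectin ligands, Itgb2, the shared chain of the leukocyte integrins, and Cd44 were higher at 1.36 ± 0.32 and 1.05 ± 0.21 (edgeR adjusted p = 0.0127 and 0.00698). Itgb7, the beta chain of the gut-homing integrin, was lower at -0.79 ± 0.25 (edgeR adjusted p = 0.049).

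Among 19 myeloid inhibitory and pattern receptor genes tested, 5 were higher and 2 lower as labelled. Cd300lf, an inhibitory receptor that binds phospholipids, had 315 to 642 CPM (median 375) in the neutrophil class and 11.2 to 48.6 CPM (median 39.4) in the monocyte class, at 2.32 ± 0.57 (SE, edgeR adjusted p = 0.0165). Treml2 was at 1.54 ± 0.27 (edgeR adjusted p = 0.00396). Clec4a3, a C-type lectin of the Dcir family, was lower at -1.41 ± 0.29 (edgeR adjusted p = 0.00688). Plaur, the urokinase receptor, from the complement and coagulation list, had 626 to 966 CPM (median 784) in the neutrophil class and 8.30 to 238 CPM (median 102) in the monocyte class.

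Fc gamma receptors bind immunoglobulin G, and antibody-driven skin disease engages them. Of 16 genes of Fc receptors and their signalling, edgeR called 0 higher and 0 lower as labelled, and 8 higher where name and class coincided. At an unadjusted p under 0.05, 6 were higher, and DESeq2 called 3 higher. Fcgr4, an activating receptor, had 31.5 to 82.6 CPM (median 40.1) in the neutrophil class and 0 to 7.37 CPM (median 4.53) in the monocyte class. The classes did not overlap, while the as-labelled difference of 2.56 ± 0.83 missed the threshold (SE, edgeR adjusted p = 0.0532). Fcgr2b, the inhibitory receptor, had 71.7 to 96.6 CPM (median 84.8) in the neutrophil class and 9.55 to 162 CPM (median 104) in the monocyte class. Fcgr1, the high-affinity receptor, had 4.81 to 23.1 CPM (median 10.2) in the neutrophil class and 2.38 to 40.7 CPM (median 24.9) in the monocyte class. These 2 overlapped, and their as-labelled differences were -0.15 ± 0.23 and -0.84 ± 0.43 (SE, edgeR adjusted p = 0.707 and 0.204). Fcer1g, the common signalling chain, had 730 to 1043 CPM (median 901) in the neutrophil class and 73.7 to 727 CPM (median 469) in the monocyte class. Once mitochondrially coded genes were left out it overlapped, at 733 to 1066 CPM in the neutrophil class, against 425 to 777 CPM in the monocyte class. Fcgr3, the low-affinity activating receptor, had 131 to 359 CPM (median 220) in the neutrophil class and 6.82 to 239 CPM (median 123) in the monocyte class.

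Of 28 monocyte and macrophage genes, edgeR called 7 lower and 0 higher in libraries labelled Neutrophil, with a median of -0.91, while 1 was higher at an unadjusted p under 0.05 and 1 by DESeq2. With all counts 1 of 28 was free of overlap and lower in the neutrophil class (Cx3cr1) and 1 higher (Treml4, at 10.4 to 28.7 CPM in the neutrophil class, against 3.22 to 9.23 CPM in the monocyte class). With mitochondrially coded genes left out, 8 were lower and 0 higher. F13a1, the A chain of coagulation factor XIII, had 232 to 614 CPM in the neutrophil class, against 705 to 2050 CPM in the monocyte class on the second scale. All counts gave 228 to 608 CPM in the neutrophil class, against 191 to 1974 CPM in the monocyte class. Its log2 difference was -1.30 ± 0.32 (SE, edgeR adjusted p = 0.0154). Irf8, a transcription factor that favours monocytes over neutrophils, had 53.4 to 161 CPM in the neutrophil class, against 194 to 544 CPM in the monocyte class on that scale, at -1.07 ± 0.29 (edgeR adjusted p = 0.0255). On all counts it had 52.4 to 159 CPM in the neutrophil class, against 39.9 to 524 CPM in the monocyte class. Ccr2, the receptor that brings monocytes out of the marrow, was at -1.38 ± 0.43 (edgeR adjusted p = 0.0481). Its ranges overlapped on both scales, with 169 to 441 CPM in the neutrophil class, against 420 to 1309 CPM in the monocyte class with mitochondrially coded genes left out. The other calls were Ms4a6c, Cd163 and Pld4. Lyz2 and Ly6c2 overlapped on both scales, so these widely used myeloid genes did not tell the classes apart.

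**Figure D3:**
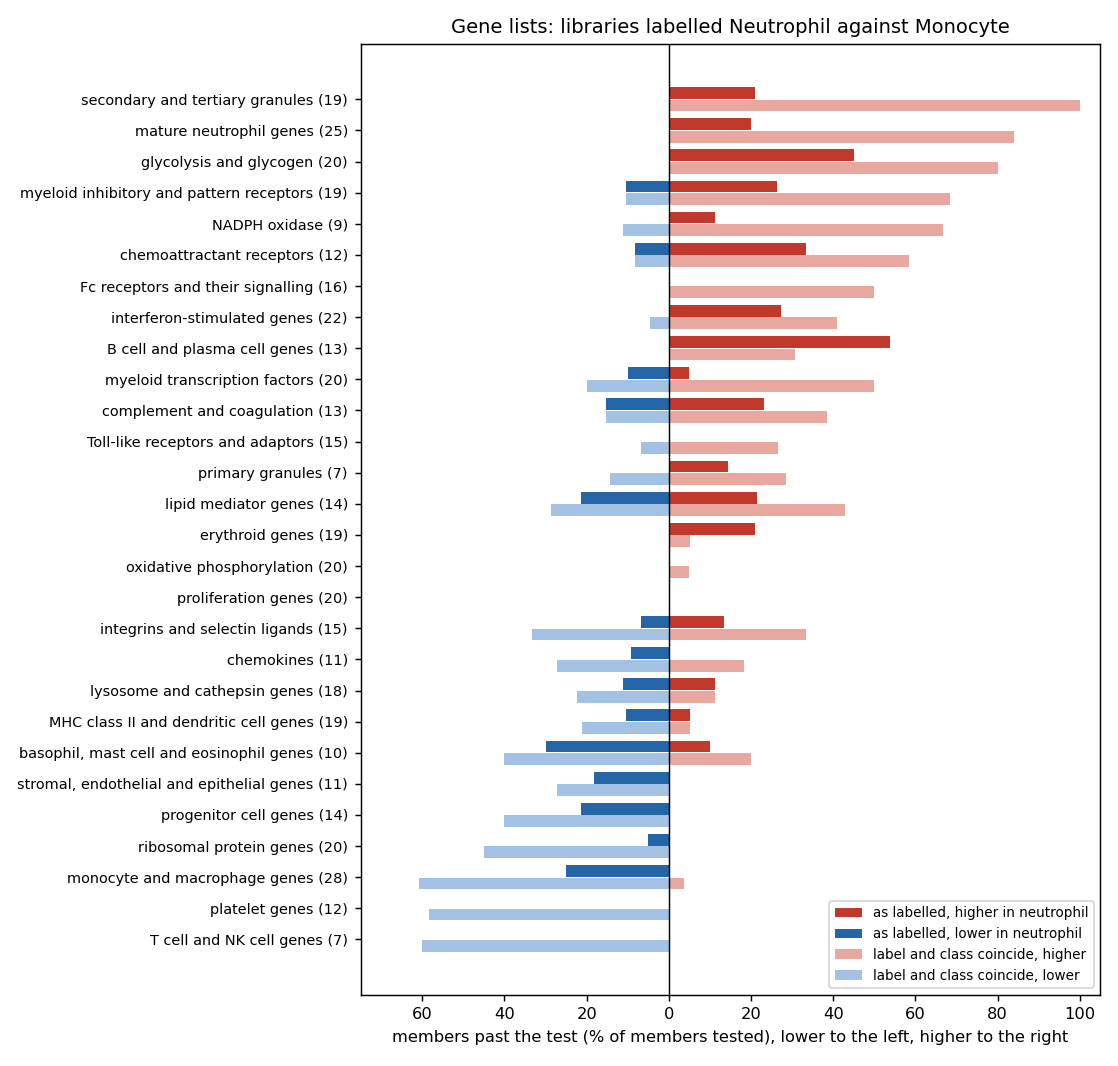
Share of the tested members of each gene list (percent, number tested as labelled in brackets) that were higher (right) or lower (left) in libraries labelled Neutrophil against libraries labelled Monocyte. Dark bars keep all deposited names (10 against 8) and pale bars keep the libraries whose name and class coincide (8 against 7). Secondary and tertiary granule genes reach 19 of 19 higher in the pale bars, and erythroid genes change from 4 of 19 to 1 of 19 higher.

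Transcription factors of the myeloid lineages gave 1 higher and 2 lower calls of 20 by edgeR as labelled, beside 6.59% and 3.66% of all genes tested. Where name and class coincided 10 were higher and 4 lower, beside 15.4% and 8.97% of all genes tested. Klf2, a quiescence factor, was higher at 1.59 ± 0.48 (SE, edgeR adjusted p = 0.0411). Maf and Irf5, factors of macrophages and of inflammatory cytokine genes, were lower at -1.68 ± 0.37 and -0.96 ± 0.23 (edgeR adjusted p = 0.0103 and 0.0152). Cebpe and Cebpd did not overlap between the classes and were higher in the neutrophil class. Sox4, from the progenitor list, was lower at -2.99 ± 0.61 (edgeR adjusted p = 0.00713), as were Cd34 and the growth factor receptor gene Flt3, 3 of 14 progenitor genes in all. Proliferation genes gave 0 higher and 0 lower of 20 by edgeR, with 1 higher at an unadjusted p under 0.05 and 0 by DESeq2. Mki67, a marker of cycling cells, had 437 to 929 CPM (median 690) in the neutrophil class and 61.1 to 1214 CPM (median 905) in the monocyte class, and was present in every library of both classes.

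Lysosomal genes gave 2 higher and 2 lower calls of 18, beside 6.59% and 3.66% of all genes tested. Ctsd, cathepsin D, was higher at 1.34 ± 0.27 (SE, edgeR adjusted p = 0.00688). Ctsa, a carboxypeptidase that protects lysosomal glycosidases, and Npc2, a cholesterol carrier, were lower at -0.71 ± 0.22 and -0.84 ± 0.26 (edgeR adjusted p = 0.0422 and 0.0441). Of 11 chemokine genes edgeR called 1 lower and 0 higher, with 2 higher at an unadjusted p under 0.05 and 0 by DESeq2. The call was Ccl9, at -1.26 ± 0.36 (edgeR adjusted p = 0.0337). Of 20 ribosomal protein genes edgeR called 1 lower and 0 higher as labelled, with 1 higher at an unadjusted p under 0.05 and 0 by DESeq2. The call was Rps6 at -0.91 ± 0.29 (edgeR adjusted p = 0.049), while 8 of 20 did not overlap and were lower in the neutrophil class once mitochondrially coded genes were left out. Rps6 then had 463 to 1080 CPM in the neutrophil class, against 1235 to 2550 CPM in the monocyte class. All counts gave 454 to 1069 CPM in the neutrophil class, against 401 to 1774 CPM in the monocyte class.

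Markers of other cell types bear on several of these lists. As labelled, 4 of 19 erythroid genes were higher, led by Bpgm and Alas2, at 10.31 ± 2.64 and 8.74 ± 2.52 (SE, edgeR adjusted p = 0.0195 and 0.0333). The blood-class libraries Neutrophil replicates 1 and 10 held 709 and 1302 CPM of Bpgm, which codes an enzyme of 2,3-bisphosphoglycerate synthesis in red cells. The neutrophil class held 5.08 to 9.00 CPM and the monocyte class 1.83 to 33.7 CPM. Where name and class coincided, Bpgm was at -0.75 ± 0.45 and Alas2, of haem synthesis, at -0.48 ± 0.97, and 1 of 19 erythroid genes was higher. Of 22 interferon-stimulated genes, edgeR called 6 higher and 0 lower as labelled, with 3 lower at an unadjusted p under 0.05 and 1 by DESeq2. Rsad2, an antiviral enzyme, had 102 and 60.1 CPM in those blood-class libraries, 11.5 to 34.0 CPM in the neutrophil class, against 0.818 to 10.1 CPM in the monocyte class. Oas3, a sensor of double-stranded RNA, was at 1.90 ± 0.33 (SE, edgeR adjusted p = 0.00387), and at 2.40 ± 0.25 where name and class coincided.

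Platelet genes turned with the choice of libraries. The 4 genes named by size that were not called lower on the deposited names were Ppbp, Nrgn, Itga2b and Tsc22d1. Tsc22d1 was lower in the neutrophil class, with 3.84 to 22.2 CPM, against 27.3 to 64.1 CPM in the monocyte class, yet was called higher as labelled, at 5.71 ± 1.80 (SE, edgeR adjusted p = 0.0475). Ppbp, platelet basic protein, had 0.325 to 5.99 CPM (median 1.98) in the neutrophil class and 10.4 to 90.6 CPM (median 32.7) in the monocyte class. It was at 2.26 ± 1.61 as labelled (SE, edgeR adjusted p = 0.386) and at -5.32 ± 0.84 where name and class coincided, and held 65.8 and 22.6 CPM in the blood-class libraries labelled Neutrophil. Itga2b, the platelet integrin chain, had 2.67 to 17.9 CPM (median 9.02) in the neutrophil class and 19.4 to 245 CPM (median 58.2) in the monocyte class. Summed over Pf4, Ppbp and Itga2b, the platelet level was 3.88 to 25.0 CPM in the neutrophil class, against 35.8 to 333 CPM in the monocyte class, and none of the 3 was below 1 CPM in every library of either class. The part of platelet RNA in the difference of other genes was not tested.

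Of 12 platelet genes, edgeR called 0 higher and 0 lower as labelled, with 6 higher at an unadjusted p under 0.05. DESeq2 called 2 higher and 3 lower. Where name and class coincided, 0 of the 12 were higher and 7 lower, and the median was -2.72 in place of 2.49. Of 7 tested T cell and NK cell genes edgeR called 0, with 3 higher at an unadjusted p under 0.05. DESeq2 called 3 higher and 1 lower. Where name and class coincided, 0 of 5 tested were higher and 3 lower, and the median was -2.71 in place of 2.99. Of 15 Toll-like receptor and adaptor genes edgeR called 0, with 1 higher and 1 lower both at an unadjusted p under 0.05 and by DESeq2. Of 13 B cell and plasma cell genes edgeR called 7 higher and 0 lower, and 0 were lower also at an unadjusted p under 0.05 or by DESeq2. Where name and class coincided, without the 2 blood-class libraries and Monocyte replicate 1, 4 of these 13 were higher, and the median was 0.55 in place of 2.41. Higher and lower calls were 1 and 3 of 10 for basophil, mast cell and eosinophil genes and 1 and 2 of 19 for MHC class II and dendritic cell genes. They were 0 and 2 of 11 for stromal, endothelial and epithelial genes (0 higher also at an unadjusted p under 0.05 and by DESeq2) and 3 and 2 of 13 for complement and coagulation genes.

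Markers of granulocytes other than neutrophils were also detected. Prg2, the major basic protein of eosinophils, had 0.806 to 4.82 CPM in the neutrophil class, against 2.18 to 165 CPM in the monocyte class. It was at -4.62 ± 0.87 as labelled (SE, edgeR adjusted p = 0.00528). Monocyte replicates 2, 3, 4 and 5 held 10.9 to 165 CPM, highest in replicate 3. The rest of the monocyte class held 2.18 to 3.26 CPM, inside the range of the neutrophil class. Mcpt8, a basophil protease, had 0.520 to 68.8 CPM in the neutrophil class, against 34.7 to 70.8 CPM in the monocyte class, at -2.45 ± 0.69 (edgeR adjusted p = 0.0301). Igkc, the immunoglobulin kappa constant gene, had 598 to 1281 CPM (median 962) in the neutrophil class and 42.5 to 393 CPM (median 236) in the monocyte class, at 1.46 ± 0.38 (edgeR adjusted p = 0.0221). Summed over the B cell markers Cd79a, Ms4a1, Pax5 and Vpreb1, the level was 3.89 to 7.51 CPM in the neutrophil class, against 0 to 4.68 CPM in the monocyte class. Of these 4, 2 stayed below 1 CPM in every neutrophil-class library. In bulk RNA, fewer cells of a type and less RNA per cell cannot be told apart.

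The class labels were checked against markers other than the class genes. Cxcr2, Csf3r, Camp, Ngp, Ltf, Mmp8, Mmp9 and Retnlg together held 57943 to 91713 CPM in the neutrophil class, against 1392 to 10252 CPM in the monocyte class. Ccr2, Cx3cr1, Ly6c2, Irf8, Klf4, F13a1, Ms4a6c and Adgre1 together held 1660.1 to 3171 CPM in the neutrophil class, against 830.1 to 7919 CPM in the monocyte class. With mitochondrially coded genes left out, the second sum was 1693 to 3203 CPM in the neutrophil class, against 4788 to 8222 CPM in the monocyte class, which no longer overlapped. Transcripts of the second set were thus present in the neutrophil class, and granule transcripts in the monocyte class. Of the second set, Ly6c2 alone held 853 to 1288 CPM in the neutrophil class, and it did not tell the classes apart. Which cells these transcripts came from was not tested.

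Inside the neutrophil class the libraries differed in the balance of early and late granule genes, a description made after the values were seen and with no test. Mpo was lowest in Neutrophil replicates 3, 2 and 4, at 101, 176 and 266 CPM, and the next library held 343 CPM. Mmp8 was highest in the same 3 libraries, at 2917, 2549 and 2310 CPM, and the next library held 1430 CPM. Cxcr2 was also highest in them, at 631, 524 and 690 CPM, and Irf8 was lowest, at 52.4, 84.0 and 94.3 CPM. Neutrophil replicates 2 and 4 are labelled IVIG and replicate 3 PBS, and their title series are 5, 3 and 2.

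**Figure D4:**
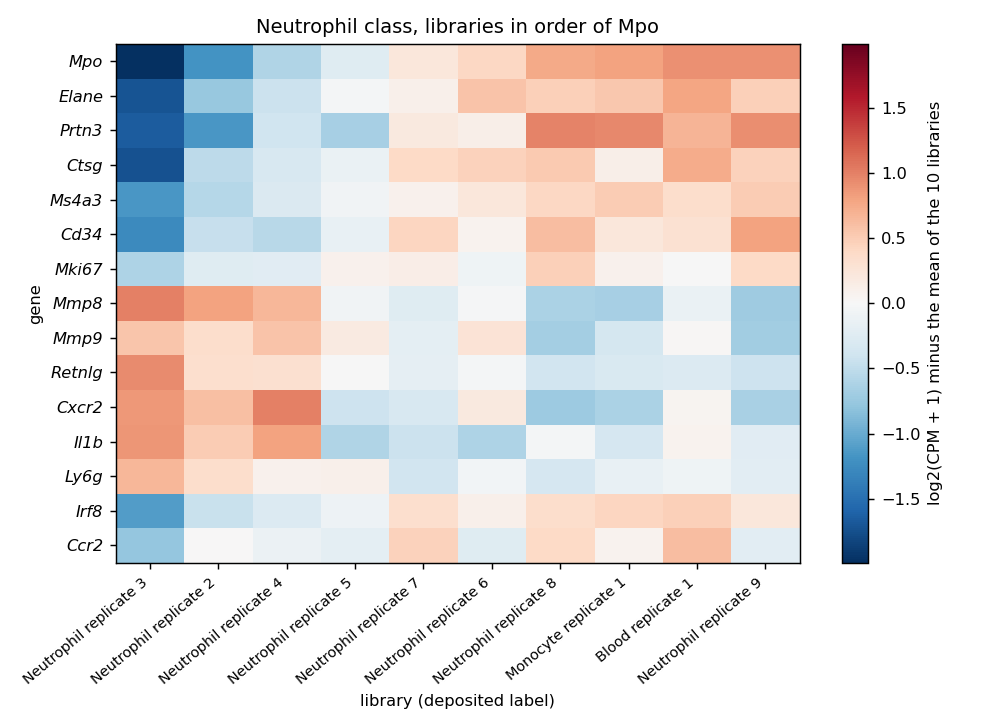
Level of 15 genes in the 10 neutrophil-class libraries, as log2(CPM + 1) minus the mean of the 10 (red higher, blue lower), with libraries ordered from lowest to highest Mpo. The upper 6 genes, from Mpo to Cd34, are lowest in Neutrophil replicate 3, which at 2917 CPM holds the most Mmp8.

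Inside the monocyte class, the libraries differed in named genes also on the scale without mitochondrially coded genes. Ngp was 1864 to 8268 CPM in Monocyte replicates 2, 3, 4 and 5 of series 5 and 2, and 436 to 723 CPM in Monocyte replicates 6, 7 and 8 of series 3. Cx3cr1 was 400 to 1912 CPM in the libraries of series 5 and 2 and 183 to 228 CPM in those of series 3. Blood replicate 3, titled as series 5, held 641 CPM of Ngp and 198 CPM of Cx3cr1, near the levels of series 3. Its mitochondrial share of 4.67% was also near theirs. The series and the mitochondrial share cannot be told apart among Monocyte replicates 2 to 8. Monocyte replicate 1, of series 5 and in the neutrophil class, held 2.94%. With title series as a covariate, the as-labelled test called 864 genes higher and 294 lower.

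The agent labels were set against each other within each class on the scale without mitochondrially coded genes. In the neutrophil class 0 of 12492 genes (0.0%) were free of overlap and at least 2-fold apart between 4 IVIG and 6 PBS libraries, and in the monocyte class 130 of 13634 (0.953%) between 4 and 4. Of 86 genes with values given by class, 0 met this in either class. Adding the agent as a covariate to the test on deposited names gave 797 genes higher and 396 lower.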

How the data were processed

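The deposited table gives expected counts per gene symbol, length-scaled TPM by the deposited table's own title, and kallisto 0.46.1 and the mouse assembly GRCm38 are named per the submitters' processing notes. Further steps are not given in the sources used here. The expected counts were rounded to whole numbers, and samples keep their own totals, so precision follows the totals given above. Levels are not compared between genes.

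Classes followed the rule above. CPM divides by the column total, and a second scale leaves out the 37 mitochondrially coded genes first. Class values are described with a pseudocount of 1 for log2 differences, a mean of at least 1 CPM in either class, and non-overlap with at least a 2-fold difference. The test used the deposited names in edgeR 4.0.16 (R 4.3.3), with TMM scaling, filterByExpr at a minimum count of 10 and Benjamini-Hochberg adjusted p. Where no tool stands beside an adjusted p, it is that of edgeR. The SE is the log2 difference divided by the square root of F. DESeq2 1.42.0, limma 3.58.1, other scaling, filters, covariates, a block by title number and leaving out libraries were alternatives. The procedure was tested on simulated counts. Among 45 pairs of neutrophil-class and 28 pairs of monocyte-class libraries 0 were identical.

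The members and the 28 lists, with 505 distinct genes of which 501 are in the table, were chosen with earlier results of these data known. Genes were named by a rule: up to 12 in each direction with the largest class difference among genes past the as-labelled test, not overlapping between classes and with a mean of at least 20 CPM, and up to 4 members of each list with the smallest p. Fcgr1, Fcgr2b, Fcgr3, Fcgr4 and Fcer1g were named whatever their values. Some genes are not reported here. Predicted genes, receptor segments and genes of the class rule were passed over. Where fewer lower genes passed, the places went to genes past the class description alone. Positions are from GENCODE vM21, which held 87 of 87 symbols.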

Additional observations from a re-analysis of the deposited data

Results flagged for a closer look

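In 21 of 174 pairs of a gene and a class, the highest or lowest library lay far from the rest by Dixon's test on log2(CPM + 1). Chance flags about 1 in 20 groups. Monocyte replicate 5, with 82.7% of counts mitochondrially coded, was the low library in 13 of the 21. It held 1.44 CPM of Clec4d, 10.3 of Ldlrad3, 4.05 of Hpgd, 72.9 of Ccr2, 6.82 of Fcgr3, 73.7 of Fcer1g and 3.94 of Ccr1. It also held 19.3 CPM of Cd44, 39.6 of Itgb7, 37.1 of Ldha, 1.75 of Pfkfb4, 281 of Rpl13 and 61.1 of Mki67. With mitochondrially coded genes left out it was still the lowest of the class for 12 of the 13, Ldha being the exception. There Dixon's ratio was taken on CPM and not on log2(CPM + 1), so the number of flags cannot be compared. It passed its limit for 1, Cd44, at 111 CPM, against 217 to 267 CPM in the other libraries. Ccr1 was at 22.7 CPM, against 64.55 to 121 CPM, and Mki67 at 353 CPM, against 812 to 1434 CPM. With those genes left out, the 8.31 CPM of Clec4d and 1622 CPM of Rpl13 in Monocyte replicate 5 lay beside the next library.

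Monocyte replicate 4 was the high library of the monocyte class for Cx3cr1 at 1330 CPM (3 significant digits), Clcn7 at 623 CPM and Eif2a at 169 CPM. Monocyte replicate 3 was high for Olfm4 at 9.35 CPM, and Blood replicate 3 for the chemokine gene Cxcl3 at 0.355 CPM. In the neutrophil class, Monocyte replicate 1 was low for Slc2a3 at 320 CPM, Neutrophil replicate 3 was low for Ctsg at 10.6 CPM, and Neutrophil replicate 4 was high for Cd300lf at 642 CPM.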

How the results depend on the processing

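Of 87 genes with as-labelled values here, 65 passed the edgeR test, and 10 reversed in at least 1 of 31 settings. In each case below the cause was not tested. The as-labelled counts of genes higher and lower, 932 and 518, were 1706 and 1314 with DESeq2, 3943 and 2952 with limma voom and quality weights, 1664 and 911 at an adjusted p limit of 0.1, and 7 and 89 with library totals only, where 61 of the 87 genes lost their call. With title series as a covariate 294 were lower. Without the libraries whose class differs from the name they were 2196 and 1276, and without those and the libraries above 30% mitochondrial counts (an alternative chosen after the data were seen) 3409 and 2927. Leaving out single libraries gave 526 to 1628 higher and 346 to 738 lower, with 556 higher without Monocyte replicate 2, 531 without Monocyte replicate 6, 561 without Monocyte replicate 7 and 595 without Monocyte replicate 8.

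The 4 numbers shared by Neutrophil and Monocyte titles gave correlations of deviations from the label means between -0.0779 and 0.0927. Those means include the libraries whose class differs from their name, so the values cannot decide whether libraries are paired. The pair of Neutrophil replicate 4 and Monocyte replicate 8 joins an IVIG label and a PBS label. Of these 4 pairs 2 include blood-class libraries, Neutrophil replicates 1 and 10, whose counts are mostly haemoglobin. A replicate block by title number left 0 genes higher and 0 lower by edgeR, with 2014 genes at an unadjusted p under 0.05 against 3938 without the block. In that fit only the 4 shared numbers carry the difference between the names. Under that block Anxa1 was at -0.0472, Fcgr3 at -1.23 and Fcer1g at -0.17.

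The class counts, 1146 and 42, were 534 and 22 at a log2 difference of 2, 133 and 6 with a class limit of 5000 CPM, and 627 and 446 with mitochondrially coded genes left out, chosen after the data were seen. Lower genes numbered 110 with TMM factors, 23 with a pseudocount of 5 and 1728 without the 4 libraries above 30% mitochondrial counts, also added. Leaving out single libraries gave 1025 to 1248 higher and 40 to 115 lower.

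Reversed log2 values under DESeq2 were -2.74 for Ppbp and -2.88 for Nrgn. With library totals only they were -1.91 for Ppbp, -0.70 for Nrgn and -2.43 for Itga2b. With limma voom they were -2.70 for Ppbp, -3.10 for Nrgn, -2.01 for Itga2b and -0.81 for Tsc22d1. Without the libraries whose class differs from the name they were -5.32 for Ppbp, -4.93 for Nrgn, -3.69 for Itga2b, -1.96 for Tsc22d1, -0.48 for Alas2 and -0.75 for Bpgm. Leaving out those above 30% mitochondrial counts as well gave -3.11, -3.51, -2.39 and -1.16 for Ppbp, Nrgn, Itga2b and Tsc22d1, and 0.0292 for Elane.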
